A study of Mus musculus with 2 samples.

Results

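The nuclear genes for the subunits of respiratory chain complexes II to V and for cytochrome c were followed in single bone marrow stem and progenitor cells of leukemic mice with and without miR-142. Members were chosen by name: Sdha to Sdhd, Cyc1, Cycs, and every gene starting with Uqcr, Atp5, or Cox and a digit from 4 to 8. The rule found 49 of the 32285 genes in the files, of which 4 belong to complex II, 9 to complex III, 18 to complex IV and 17 to complex V, and 1 is Cycs. LSK cells (Lin-Sca-1+c-Kit+, a sorted fraction of marrow rich in blood stem and progenitor cells) had been run through a 10x Genomics 3′ single cell kit. The library called WT here came from miR-142 wild-type BCR-ABL+ mice, and the library called KO from Mir142 KO BCR-ABL+ mice (miR-142 -/-). Mice of both groups were 8-10 weeks old and carried the SCLtTA/BCR-ABL transgenes on the C57BL/6 background, a model of chronic myeloid leukemia (CML) in which the SCL promoter drives BCR-ABL in stem and progenitor cells once tetracycline is withdrawn. Cells were taken 2 weeks after that induction. There was 1 library per group and the number of mice behind each was not stated, so no test was run, every interval covers counting error only, and genotype cannot be told apart from library.

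As background, the respiratory chain passes electrons from food molecules to oxygen in the inner mitochondrial membrane. Complex II (succinate dehydrogenase) feeds electrons from the citric acid cycle, complex III hands them to cytochrome c, complex IV (cytochrome c oxidase) reduces oxygen, and complex V (ATP synthase) uses the proton gradient to make ATP. Complexes III, IV and V also hold a few subunits encoded by mitochondrial DNA, whereas complex II is wholly nuclear. Blood stem cells are known for low mitochondrial respiration, which rises as progenitors differentiate.

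The miRNA deleted in the KO mice is shown first because its seed decides which 3′ untranslated regions (UTRs) can pair with it. Both arms of the hairpin lie on the plus strand of chromosome 11 (GRCm38), miR-142a-5p at chr11:87756867-87756887 and miR-142a-3p at chr11:87756903-87756925. Capitals mark the seed, bases 2 to 8, in the RefSeq sequences.
mmu-miR-142a-5p: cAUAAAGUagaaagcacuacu
mmu-miR-142a-3p: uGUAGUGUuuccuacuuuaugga
Seed matches were rare among the members. One of the 49 members (2.04%) held the 3p heptamer ACACTAC in its longest annotated 3′ UTR, against 6.05% of 20870 genes, and 1 (2.04%) held the 5p heptamer ACTTTAT, against 14.4%. Member UTRs were also shorter, with a median length of 201 bases against 966 over all genes. The 3p match was in Sdhc, the membrane anchor subunit of complex II (chromosome 1, 171127165 to 171150603, minus strand), and the 5p match in Cycs, which codes for cytochrome c (chromosome 6, 50562563 to 50566538, minus strand). They are shown with the heptamer in capitals, since both genes recur below.
Sdhc: caccaagaaaaACACTACtccaagagatt
Cycs: tgacaaatcttACTTTATacaagaaattg

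Promoters were searched next, because nuclear respiratory genes are known targets of the factors NRF1 and GABP. The RefSeq table (GRCm38.p6) gave 300-base windows, from 250 bases before to 50 after the start, for 37 of the 49 members. The NRF1 motif GCGCANGCG, searched on both strands, lay in 13 of the 37 windows (35.1%), against 9.63% of the windows of protein-coding genes. The GABP motif CCGGAAG lay in 13 (35.1%), against 12.9%. The YY1 motif AAGATGGC lay in 3 (8.11%), against 3.57%, the CRE motif TGACGTCA in 2 (5.41%), against 2.54%, and the E-box CACGTG in 4 (10.8%), against 8.91%. The windows of Cycs (chr6:50566520-50566819, minus strand) and of Sdha, the flavoprotein subunit of complex II (chr13:74350191-74350490, minus strand), are printed because both hold the NRF1 motif while their levels differ between cell groups in unlike ways (below). Capitals mark NRF1 matches in both, and in Cycs also the CRE at -169.
Cycs: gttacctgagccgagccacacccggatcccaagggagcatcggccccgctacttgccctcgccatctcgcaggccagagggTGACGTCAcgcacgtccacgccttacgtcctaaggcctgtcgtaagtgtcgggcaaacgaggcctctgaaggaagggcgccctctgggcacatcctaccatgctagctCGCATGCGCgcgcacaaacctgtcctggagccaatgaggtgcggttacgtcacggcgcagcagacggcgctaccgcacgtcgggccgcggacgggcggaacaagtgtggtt
Sdha: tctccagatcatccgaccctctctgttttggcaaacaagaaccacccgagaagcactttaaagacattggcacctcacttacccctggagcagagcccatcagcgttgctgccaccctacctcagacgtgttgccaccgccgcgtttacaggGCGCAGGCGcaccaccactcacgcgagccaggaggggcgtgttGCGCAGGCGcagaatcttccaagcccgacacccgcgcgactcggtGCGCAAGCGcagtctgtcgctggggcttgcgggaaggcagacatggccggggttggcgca
Cycs held 1 NRF1 match, at -61 from the start, and Sdha held 3, at -98, -55 and -10. A match describes letters in a window and does not show that a factor binds there.

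Cells were barcodes with at least 8000 unique molecular identifiers (UMIs) and under 10% mitochondrial UMIs, which left 5363 WT and 5458 KO cells with medians of 19443 and 24181.5 UMIs. The libraries shared 4 barcodes. Mir142hg, the host transcript of miR-142, had 1260 UMIs in WT and 20 in KO (9.12 and 0.126 CPM, UMIs scaled to a common total). Both sort markers were present, with 86.4 CPM of Kit and 96.8 CPM of Ly6a (Sca-1) in WT and 68.3 and 153 CPM in KO. Of other cells, Cd3e of T cells had 0 and 2 UMIs and C1qa of macrophages 43 and 11, while S100a8 of maturing neutrophils had 14.1 CPM in WT against 107 CPM in KO, whose part in the ratios over all cells was not tested. Cells were also sorted into groups by summed marker UMIs per 10000, in a fixed order. The WT and KO groups held 1606 and 374 HSC-like cells (Hlf, Mecom and other stem cell genes), 578 and 271 lymphoid-primed cells (Flt3, Dntt), 912 and 2844 granule-high cells (Elane, Mpo, Prtn3, Ctsg), 258 and 281 megakaryocyte/erythroid cells, 216 and 352 basophil/mast cells, and 1742 and 1159 cells past no cut, called ungated. Innate lymphoid cells (15 and 177) and antibody-secreting cells (36 and 0) were too few in WT or KO for values of their own. Granule-high cells thus made up 17.0% of WT and 52.1% of KO cells, and HSC-like cells 29.9% and 6.85%. The cuts were set after the data were seen, and 321 WT and 566 KO cells lay within 0.8 to 1.25 times the granule cut, against 715 and 438 at the HSC-like cut. Granule transcripts also occurred outside cells: barcodes of at most 100 UMIs held 58.5 marker UMIs per 10000 in WT and 135 in KO, against 135 and 176 in granule-high cells.

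To ask whether loss of miR-142 went with a different supply of these transcripts, UMIs were summed over all cells of each library. Members took 2.12% of the UMIs in WT against 2.39% in KO, or 21247 and 23950 CPM, a log2 ratio (KO over WT) of 0.17 (95% interval 0.17 to 0.18). Complex III stood at 3253 CPM in WT against 3854 CPM in KO, a log2 ratio of 0.24 (0.24 to 0.25). Cytochrome c stood at 395 and 465 CPM (0.23, 0.22 to 0.25), complex IV at 7107 and 7970 CPM (0.17) and complex V at 9940 and 11106 CPM (0.16). Complex II had about the same level in both, 552 and 555 CPM, with a log2 ratio of 0.01 (-0.01 to 0.02). Of the 49 members, 44 reached a mean of 10 CPM, and 37 of these had a log2 ratio above 0, against a background of 38.1% of the 7483 genes at that level. At least 1.2-fold higher in KO were 10 members (background 10.6%), and at least 1.2-fold lower 0 (background 24.9%; no test was run, so there is no p-value). The median log2 ratio was 0.18 over the members and -0.08 over all genes at that level. With median-of-ratios scaling in place of totals, 40 were above 0, as Uqcrc2, Uqcrh and Cox7b changed sign, and 21 were at least 1.2-fold higher (16.2% of all genes). The other 5 members, all tissue-restricted isoforms of complex IV, were below the level: Cox6a2, Cox7a1, Cox7b2, Cox8b and Cox8c. Cox7b2 and Cox8b had no UMI in either library and Cox8c had 1, in KO.

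**Figure D1:**
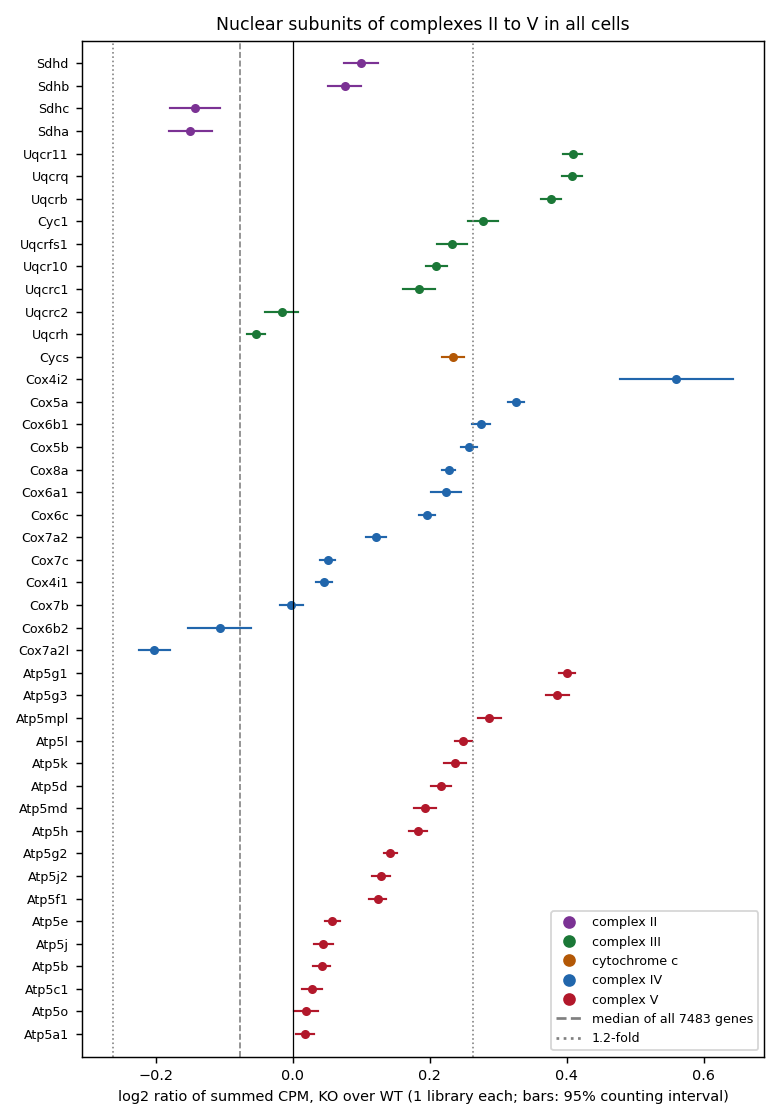
Log2 ratio of summed CPM (KO over WT, x axis) for each of the 44 members with a mean of at least 10 CPM, grouped by complex; points are 1 library against 1 library and bars are 95% counting intervals. Of the 44 points, 37 lie to the right of 0 and 10 at or beyond the 1.2-fold line on that side, none lies at or beyond it on the other side, and the dashed median of all 7483 genes lies at -0.08.

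Complex II was split evenly between its subunits. Sdha, the catalytic flavoprotein, was 116 CPM in WT against 105 CPM in KO, a log2 ratio of -0.15 (-0.18 to -0.12). Sdhc was 84.8 and 76.8 CPM, a log2 ratio of -0.14 (-0.18 to -0.11). The iron-sulfur subunit Sdhb was 184 and 194 CPM (0.08, 0.05 to 0.10), and the second anchor Sdhd 167 and 179 CPM (0.10, 0.07 to 0.12). None of the 4 was 1.2-fold apart.

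In complex III, 7 of 9 subunits had ratios above 0 and 4 were at least 1.2-fold higher in KO. Uqcr11, a small membrane subunit, was 501 CPM in WT against 665 CPM in KO (0.41, 0.39 to 0.42). Uqcrq, another small subunit, was 459 and 608 CPM (0.41, 0.39 to 0.42). Uqcrb, a subunit near the quinone site, was 447 and 580 CPM (0.38, 0.36 to 0.39). Cyc1, the heme protein that hands electrons to cytochrome c, was 216 and 261 CPM (0.28, 0.26 to 0.30). Among the remaining members were the Rieske iron-sulfur protein Uqcrfs1 (0.23) and the core proteins Uqcrc1 (0.18) and Uqcrc2 (-0.02). The lowest ratio was that of the hinge protein Uqcrh, with 594 and 572 CPM (-0.05, -0.07 to -0.04). The spread of the 9 subunits was thus wider than their counting intervals.

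Complex IV had 13 members at the level, 10 with ratios above 0 and 3 at least 1.2-fold higher in KO. Cox4i2, the less common form of subunit 4, was 13.6 CPM in WT against 20.01 CPM in KO, a log2 ratio of 0.56 (0.48 to 0.64) and the highest among the members. Cox5a, a ubiquitous subunit, was 736 and 922 CPM (0.33, 0.31 to 0.34), and Cox6b1, which faces the intermembrane space, 581 and 703 CPM (0.27, 0.26 to 0.29). The common forms Cox8a (0.23), Cox6a1 (0.22), Cox7a2 (0.12) and Cox4i1 (0.05) had smaller positive ratios, and Cox7b was 399.7 and 399.1 CPM. Cox6b2, best known from testis, was 53.5 and 49.7 CPM (-0.11, -0.15 to -0.06). Cox7a2l, known for a part in joining complexes into supercomplexes, had the lowest ratio, at 231 and 201 CPM (-0.20, -0.22 to -0.18).

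Over all cells and with totals as the scale, all 17 members of complex V had ratios above 0, unlike those of complexes II, III and IV. Of these members, 3 were at least 1.2-fold higher in KO. With median-of-ratios scaling complex III had no member below 0 either, as Uqcrc2 and Uqcrh changed sign. Inside the cell groups the signs of complex V members were mixed (below). Subunit c, which forms the rotor ring, is made as the same mature protein from 3 genes. Atp5g1 was 739 CPM in WT against 976 CPM in KO (0.40, 0.39 to 0.41), Atp5g3 was 368 and 481 CPM (0.39, 0.37 to 0.40), and Atp5g2 was 1036 and 1144 CPM (0.14, 0.13 to 0.15). The third member past the fold was Atp5mpl, a small membrane subunit, at 376 and 459 CPM (0.29, 0.27 to 0.30). The catalytic subunit Atp5b was 741 and 763 CPM (0.04), and its partner Atp5a1, the lowest, 596 and 603 CPM (0.02, 0.00 to 0.03). Ratios of both catalytic head genes therefore lay below those of the rotor genes Atp5g1 and Atp5g3. Atp5o (0.02) is uncertain, because a second annotated gene of that name overlaps it on the same strand. Other annotated genes also overlap Atp5b (Mir677, Snord59a), Atp5g2 (Mir688) and Atp5c1 (Gm23608) on the same strand, as they do Cox4i1 (Gm20388) and Cox7c (Gm22574) of complex IV, and reads they share cannot be told apart here.

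The mitochondrially encoded partners went the other way. In complex III mt-Cytb was 2825 CPM in WT against 1825 CPM in KO, a log2 ratio of -0.63. In complex IV mt-Co1 was 4648 and 3717 CPM (-0.32), mt-Co2 4232 and 3002 CPM (-0.50) and mt-Co3 3576 and 2205 CPM (-0.70). In complex V mt-Atp6 was 5565 and 3704 CPM (-0.59), while mt-Atp8 was 114 and 122 CPM (0.10) and was the exception. Over all 13 mitochondrially encoded subunits the median log2 ratio was -0.44, with 11 at least 1.2-fold lower in KO. Summed over complexes III to V these transcripts stood at 20960 and 14574 CPM. The median mitochondrial share per cell, which counts these same transcripts, was 2.85% in WT and 2.004% in KO. The cause of this difference was not tested.

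Other nuclear lists of the chain were set beside the members. The 38 complex I subunits at the level had a median log2 ratio of 0.22, with 36 above 0, 10 at least 1.2-fold higher and 0 lower. The 78 mitochondrial ribosomal proteins had a median of 0.15, with 69 above 0, 20 at least 1.2-fold higher and 0 lower. Among 32 assembly factors of complexes II to V the median was 0.03, with 18 above 0, 2 at least 1.2-fold higher and 1 lower. Of 8 regulators at the level, 1 was above 0, and it was Esrra, a nuclear receptor that acts on respiratory genes, at 14.6 CPM in WT against 20.8 CPM in KO (0.51). Nrf1 was 27.0 and 22.6 CPM (-0.26) and Gabpa 19.6 and 17.4 CPM (-0.18). Members with an NRF1 motif (13) had a median log2 ratio of 0.18, and those whose window lacked it (21 at the level) 0.12.

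Because the libraries differed in their mix of cells, the same sums were taken inside each cell group. All members together stood at 16922 CPM in WT against 17247 CPM in KO in HSC-like cells (log2 ratio 0.03, 0.02 to 0.04), and at 25013 and 25549 CPM in granule-high cells (0.03). The log2 ratio was -0.02 (-0.04 to -0.01) in lymphoid-primed, 0.02 in ungated, 0.02 (0.01 to 0.03) in megakaryocyte/erythroid and -0.05 (-0.06 to -0.04) in basophil/mast cells. These 6 values were thus all smaller in size than the 0.17 over all cells. With both libraries weighted to one mix of the 6 groups (the mean share of cells), the ratio over all members was 0.02. Under this weighting 22 of the 44 members were above 0, against 38.6% of all genes, and 1 was at least 1.2-fold higher, against 8.86%. The cells of a group differed in depth, however, with medians of 53584 UMIs in WT and 38230.5 in KO in granule-high and 13449 and 11360 in HSC-like cells. Among cells with 15000 to 30000 UMIs, a choice made after the data were seen, the ratios were 0.08 (0.07 to 0.10) in HSC-like, 0.11 in lymphoid-primed, 0.11 in ungated, 0.15 (0.13 to 0.16) in granule-high, 0.15 in megakaryocyte/erythroid and -0.11 (-0.13 to -0.09) in basophil/mast cells. At like depth the members were therefore higher in KO in 5 of 6 groups, and the size of the difference inside groups depended on depth. The 114 WT cells of like depth in the granule-high group were few of its 912.

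**Figure D2:**
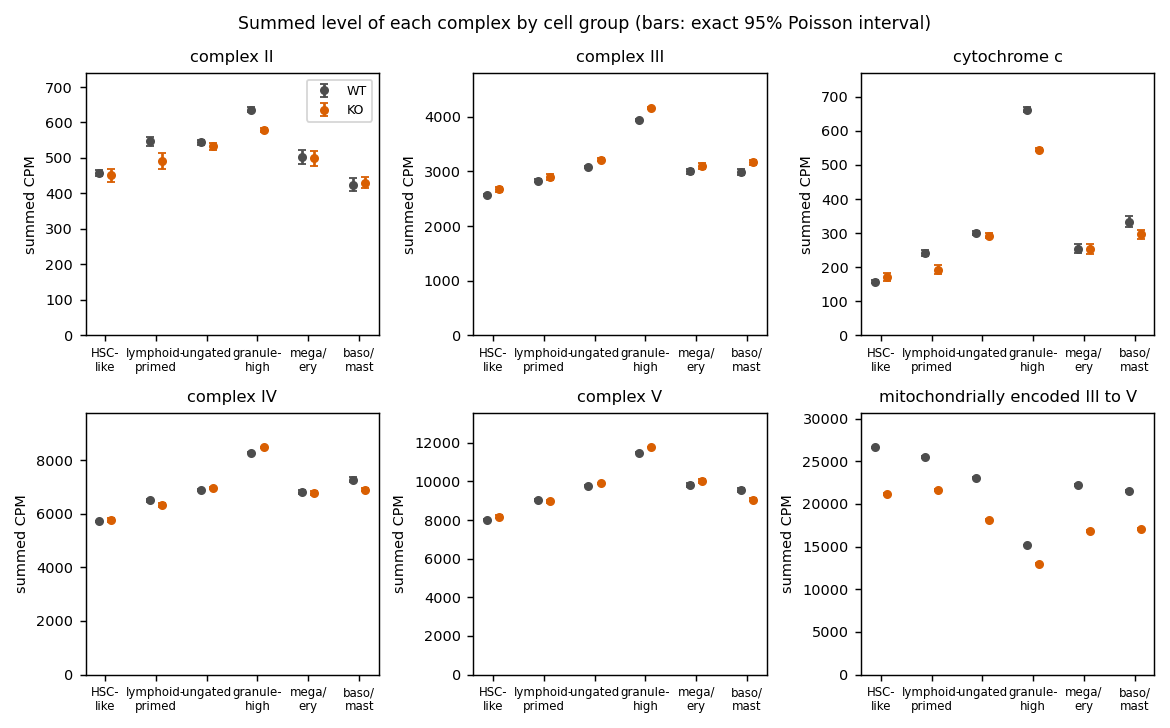
Summed level (CPM, y axis from 0) of each complex and of the mitochondrially encoded subunits of III to V in 6 cell groups (x axis), 1 point per library with exact 95% Poisson intervals. WT and KO points of the nuclear complexes lie close to each other and highest in granule-high cells, where cytochrome c reached 662 CPM in WT against 544 CPM in KO, whereas the mitochondrially encoded sum is lowest there and lower in KO in each of the 6 groups.

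The complexes differed inside the groups. Complex III had ratios above 0 in all 6, from 0.03 in lymphoid-primed to 0.08 in basophil/mast cells, and in cells of like depth from 0.02 in basophil/mast to 0.22 in granule-high cells. Complex II was 635 CPM in WT against 579 CPM in KO in granule-high cells (-0.14), and its ratio lay between -0.16 and 0.02 over the groups. Complex IV lay between -0.08 and 0.04 and complex V between -0.08 and 0.04. At like depth complex IV was -0.13 in basophil/mast cells and from 0.07 (HSC-like) to 0.15 (granule-high) in the other groups. Complex V was there -0.13 in basophil/mast cells and from 0.09 (HSC-like) to 0.15 (megakaryocyte/erythroid) elsewhere. Complex II then ranged from -0.08 (lymphoid-primed) to 0.13 (basophil/mast), with -0.07 (-0.15 to 0.01) in granule-high cells. The mitochondrially encoded sum was lower in KO in every group, with log2 ratios from -0.41 in megakaryocyte/erythroid to -0.22 in granule-high cells, and from -0.55 to -0.31 at like depth. The UMIs of the members without complex II, Cycs included, were set over those of the mitochondrially encoded subunits of III to V. This came to 0.618 in WT and 0.792 in KO in HSC-like cells, and to 1.60 and 1.92 in granule-high cells. It was not taken at like depth, where the mitochondrially encoded sum differed less between these 2 groups. That sum was then 25387 CPM in HSC-like and 25037 CPM in granule-high cells of WT, and 20394 and 17045 CPM in KO.

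Cytochrome c, a single gene, had a wider range of ratios between groups than the sums of complexes II to V. Some other single members ranged more widely, among them Cox4i2 (-0.92 to 1.49) and Cox7a2l (-0.26 to 0.30). Cycs was 158 CPM in WT against 172 CPM in KO in HSC-like cells (0.12, 0.01 to 0.23), 242 and 193 CPM in lymphoid-primed cells (-0.33, -0.44 to -0.21), and 301 and 292 CPM in ungated cells (-0.04). In granule-high cells it was 662 and 544 CPM (-0.28, -0.30 to -0.26), in megakaryocyte/erythroid cells 254 and 252 CPM (-0.01), and in basophil/mast cells 333 and 296 CPM (-0.17, -0.26 to -0.07). Its ratio was thus 0.23 over all cells and below 0 in 5 of 6 groups, in 3 of them with an interval off 0. At like depth the order turned round, and Cycs was above 0 in 5 of 6 groups, in 4 of them with an interval off 0. The ratios there were 0.27 (0.11 to 0.43) in HSC-like, 0.17 (0.00 to 0.33) in lymphoid-primed, 0.21 (0.15 to 0.27) in ungated, 0.07 (-0.03 to 0.17) in granule-high and 0.32 (0.16 to 0.48) in megakaryocyte/erythroid cells, against -0.34 (-0.51 to -0.17) in basophil/mast cells. The direction of Cycs inside groups therefore depended on depth. With Hlf left out of the HSC-like gate its ratio there was 0.31. Cycling cells were those with at least 10 UMIs per 10000 of S phase genes or of G2/M phase genes. Over all groups together they held more Cycs than the others, 447 against 163 CPM in WT and 513 against 245 CPM in KO. Most granule-high cells were cycling (871 of 912 in WT and 2381 of 2844 in KO), and their part in this gap was not tested.

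Members were then counted by their direction across the groups. Above 0 in all 6 groups were 8 of 44 members, against 13.6% of all genes, and below 0 in all 6 were 10, against 19.9%. Both shares were close to the background or little above it. Complex V was split, with Atp5d, Atp5g1, Atp5g2, Atp5g3 and Atp5l above 0 in all 6 and Atp5b, Atp5c1, Atp5j2, Atp5md and Atp5o below 0 in all 6. In cells of like depth 8 members were above 0 in all 6 groups (background 9.74%) and 0 below (background 12.3%). Above 0 under both settings were 6 members, Uqcr11, Uqcrb and Uqcrfs1 of complex III and Atp5g1, Atp5g3 and Atp5l of complex V. Intervals lay wholly above 0 in all 6 groups for 2 of 44 members, close to the background of 4.13%. They were Atp5g3, with ratios from 0.14 to 0.25, and Uqcrb, from 0.13 to 0.25. At like depth each of these had an interval above 0 in 5 of 6 groups, and Uqcr11 had one in all 6. Intervals lay wholly below 0 in all 6 for 4 members (background 3.88%), Cox7a2, Cox7b, Cox7c and Atp5o, but at like depth none of them was below 0 in all 6. Sdhc, the member with the 3p match, was below 0 in all 6, from -0.26 in HSC-like to -0.00 in basophil/mast cells, and above 0 in 3 of 6 at like depth.

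**Figure D3:**
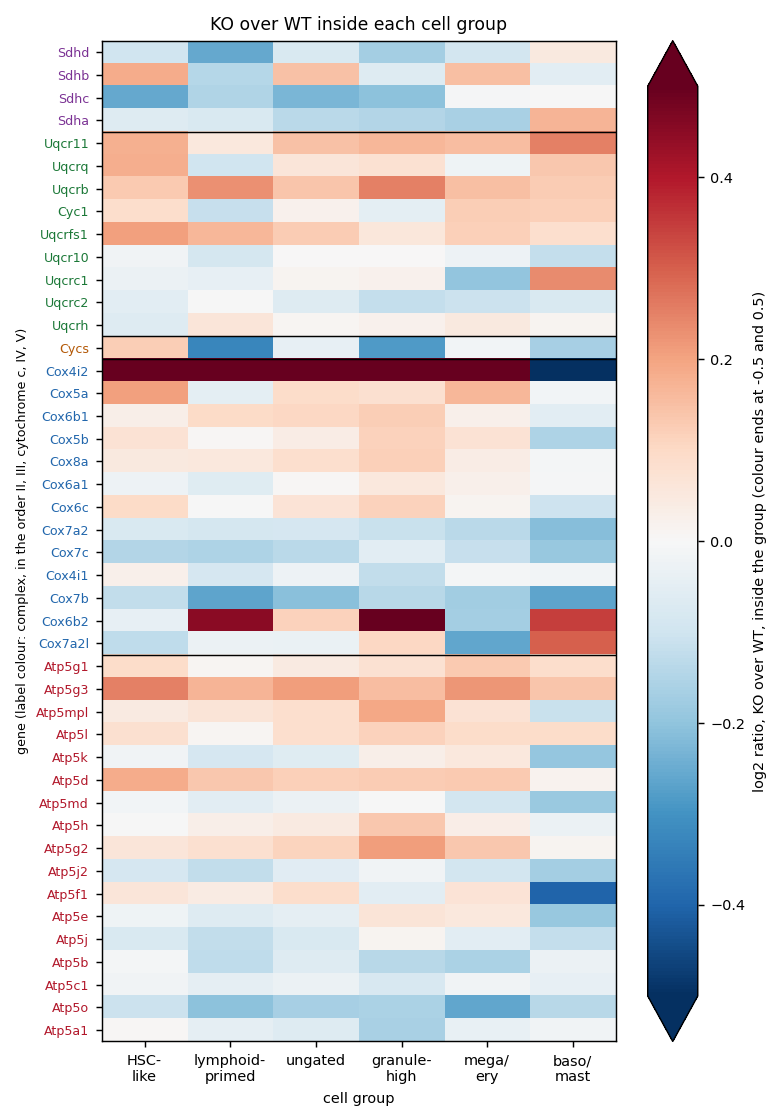
Log2 ratio (KO over WT, colour, ends at -0.5 and 0.5) of each of the 44 members (rows, by complex) inside each of 6 cell groups (columns). The rows of Atp5g3 and Uqcrb are positive in all 6 groups, the row of Cox7b is negative in all 6, and Cycs is negative in lymphoid-primed (-0.33) and granule-high cells (-0.28).

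Cell groups were then compared inside each library, to see how these genes vary along the progenitor states. Members together were 1.48-fold higher in granule-high than in HSC-like cells in WT, and 1.48-fold higher in KO. At least 1.2-fold higher were 35 of 44 members in WT, against 30.3% of all genes, and 36 in KO, against 28.7%. Cycs differed most, with 4.20-fold in WT (log2 2.07, 2.02 to 2.12) and 3.17-fold in KO (1.66, 1.57 to 1.76). Uqcrq followed with log2 ratios of 1.38 and 1.27, Atp5g1 with 1.29 and 1.27, Cyc1 with 1.24 and 1.10, and Cox5a with 1.07 and 0.94. Complexes II, III, IV and V as wholes had log2 ratios of 0.48, 0.62, 0.54 and 0.52 in WT and of 0.36, 0.64, 0.56 and 0.53 in KO.

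Not all subunits followed. Cox6b2 was 87.7 CPM in HSC-like and 28.6 CPM in granule-high cells of WT, a log2 ratio of -1.61, and 85.2 and 43.0 CPM in KO (-0.99). Cox7a2l had ratios of -0.82 and -0.59, and Uqcrh of -0.29 and -0.21. Within complex II, Sdhd had ratios of 0.87 and 0.80 and Sdha of -0.02 (-0.08 to 0.05) and -0.10 (-0.22 to 0.02). Cycs and Sdha, both with an NRF1 match and printed above because their levels differ, lay far apart. Over the 13 members with an NRF1 motif the median log2 ratio was 0.73 in WT and 0.70 in KO. Over the 21 at the level whose window lacked it, the medians were 0.60 and 0.55. The part of NRF1 was not tested. The mitochondrially encoded sum had ratios of -0.81 in WT and -0.70 in KO.

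Depth moved with this comparison as well. Among cells with 15000 to 30000 UMIs (580 HSC-like and 114 granule-high cells in WT, 98 and 759 in KO), the ratio over all members was 0.25 in WT and 0.31 in KO, that of Cycs 0.98 and 0.78, that of Cox6b2 -0.44 and -0.40 and that of Cox7a2l -0.31 and -0.15. The directions were the same and the sizes smaller. The mitochondrially encoded sum was -0.02 in WT and -0.26 in KO, so that the WT value was near 0. Cycling moved with these groups as well. In WT, 871 of 912 granule-high and 772 of 1606 HSC-like cells were cycling, and in KO 2381 of 2844 and 132 of 374. Free granule RNA and the gate itself, which selects on genes that differ between the libraries, moved with these groups too. The part of cycling, free RNA and the gate was not tested.

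**Figure D4:**
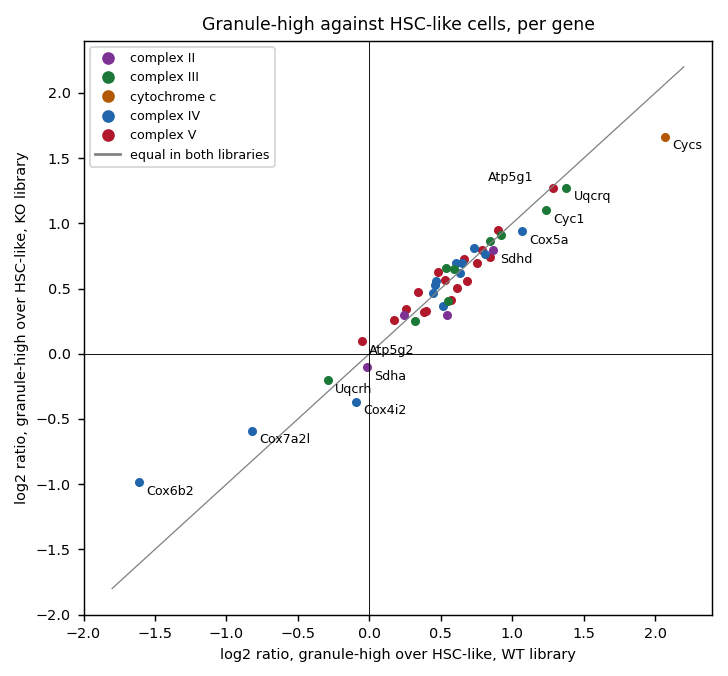
Log2 ratio of granule-high over HSC-like cells for each of the 44 members, in the WT library (x axis) and in the KO library (y axis), coloured by complex; the grey line marks equal ratios. Cycs lies farthest to the upper right (2.07 and 1.66) and Cox6b2 farthest to the lower left (-1.61 and -0.99), and most members lie between 0 and 1 on both axes.

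Isoform pairs were compared as shares of UMIs within a family, which do not depend on the total used for CPM. UMIs mark 3′ ends and were not divided by length. Cox4i2, the isoform of subunit 4 known from lung and from low oxygen, made up 1.60% of subunit 4 UMIs in WT and 2.27% in KO. The share was higher in KO in 5 of 6 groups, among them HSC-like (1.86% and 3.26%), lymphoid-primed (0.870% and 2.55%), ungated (2.38% and 4.21%) and granule-high cells (1.22% and 1.99%). In basophil/mast cells it was 1.195% in WT and 0.639% in KO, on 43 and 35 UMIs. Inside groups the log2 ratio of Cox4i2 itself reached 1.49 (1.04 to 1.95) in lymphoid-primed cells, on 89 UMIs in WT and 80 in KO.

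Cox6a2, the isoform of subunit 6a known from heart and skeletal muscle, was singled out after its values were seen and is below the level filter. It had 1413 UMIs in WT and 235 in KO, or 10.2 and 1.48 CPM, a log2 ratio of -2.79 (-2.99 to -2.59). Of the WT UMIs, 732 came from the 578 lymphoid-primed cells, where it made up 24.4% of subunit 6a UMIs, against 3.33% in KO. After thinning each cell to 8000 UMIs, it was found in 14.2% of WT lymphoid-primed cells and in 2.21% of KO ones (24.0% and 3.32% unthinned, median depths 18917 and 12908 UMIs). Granule-high cells were the next largest source, with 399 WT and 170 KO UMIs and thinned shares of 5.59% (51 cells) and 1.16% (33 cells). In basophil/mast cells the thinned shares were 0.926% and 0.284%, which rest on 2 WT cells and 1 KO cell, at median depths of 17133.5 and 16315.5 UMIs. Counts were concentrated in few cells: 65 WT cells held 5 or more Cox6a2 UMIs, 43 of them lymphoid-primed, against 3 KO cells.

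Cox6a2 went with Dntt, the lymphoid enzyme that adds bases to rearranging receptor genes. In cells with 0 Dntt UMIs it stood at 4.64 CPM in WT against 1.32 CPM in KO, and in cells with 1 to 4 at 6.19 and 1.87 CPM. In cells with 5 to 19 Dntt UMIs it stood at 30.2 CPM (26.3 to 34.5) in 259 WT cells and 3.85 CPM (1.84 to 7.07) in 111 KO cells. In cells with 20 or more it stood at 162 CPM in 122 WT cells. The 8 KO cells of that class stood at 60.0 CPM, but all 11 of their Cox6a2 UMIs came from 1 cell, so this value has no spread over cells behind it. The level was thus higher with more Dntt in WT, and lower in KO than in WT in the 3 classes with under 20 Dntt UMIs. The KO value of the class with 5 to 19 rested on 10 Cox6a2 UMIs in 6 cells. Classes were cut on raw Dntt UMIs, so depth moved with them, and the intervals leave out the spread between cells. Barcodes of at most 100 UMIs held the gene at 10.8 CPM in WT against 1.85 CPM in KO, close to its level over all cells of each library, and the part of free RNA in the low values elsewhere was not tested.

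**Figure D5:**
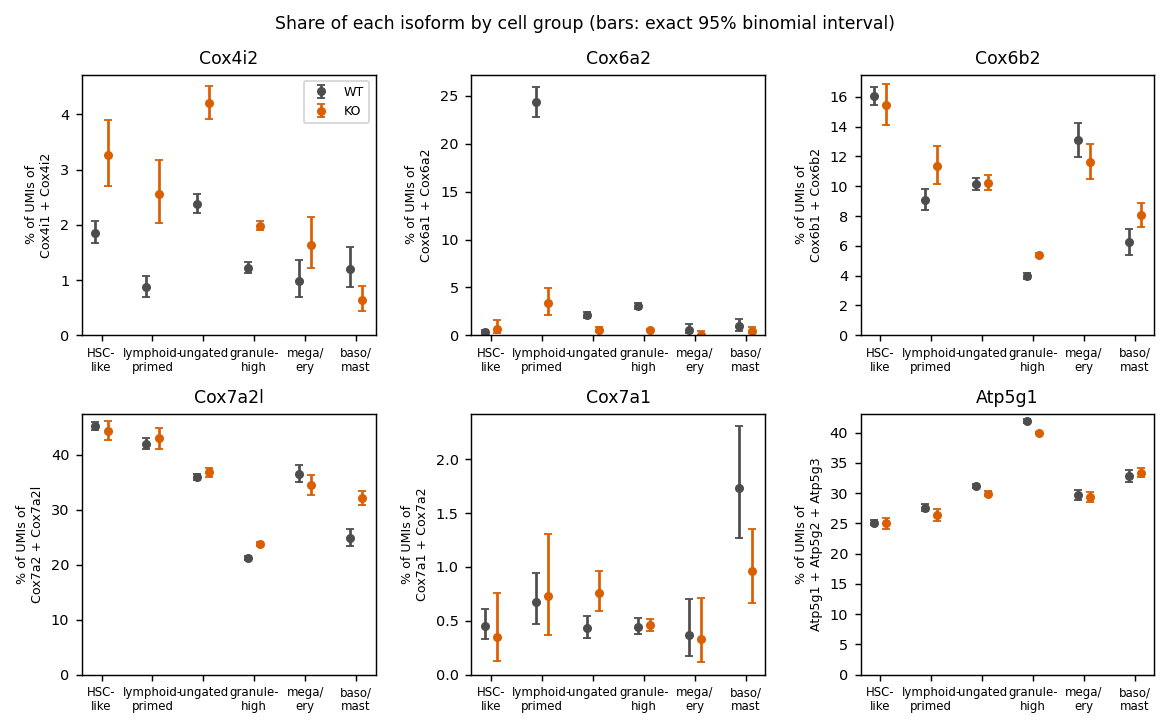
Share (percent of UMIs of the named pair or family, y axis) of 6 isoforms in 6 cell groups (x axis), 1 point per library with exact 95% binomial intervals. Cox6a2 stands out in WT lymphoid-primed cells at 24.4%, Cox4i2 is higher in KO in 5 of 6 groups, and Cox6b2, Cox7a2l and Atp5g1 vary more between cell groups than between libraries.

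The other families varied mainly by cell group. Cox6b2 made up 16.1% of subunit 6b UMIs in WT and 15.4% in KO in HSC-like cells, and 3.95% and 5.38% in granule-high cells. Cox7a2l made up 45.3% and 44.4% of the UMIs of Cox7a2 and Cox7a2l in HSC-like cells, and 21.2% and 23.8% in granule-high cells. Atp5g1 made up 25.1% and 24.98% of subunit c UMIs in HSC-like cells, and 41.9% and 39.9% in granule-high cells. Depth moved with these shares: in granule-high cells with 15000 to 30000 UMIs they were 11.1% and 9.46% for Cox6b2, 34.7% and 33.2% for Cox7a2l and 34.1% and 34.7% for Atp5g1, and in HSC-like cells 17.0% and 15.2%, 42.3% and 38.9%, and 24.7% and 24.7%. In these 3 families the gap between the 2 cell groups was larger than the gap between the libraries, also at like depth, where it was smaller. Cox7a1, the muscle form of subunit 7a, was at 2.51 CPM in WT against 2.76 CPM in KO, with its highest share in basophil/mast cells (1.73% and 0.963% of the UMIs of Cox7a1 and Cox7a2).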

How the data were processed

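Lin-Sca-1+c-Kit+ bone marrow cells were profiled by 10x Genomics 3′ single cell RNA-seq, with 1 library for each genotype. The authors aligned reads to mm10 and counted UMIs with Cell Ranger (version 6.1.2 per the submitters' processing notes, 4 per the file headers). The deposited values are raw UMI counts, not normalized and not filtered for cells. Here barcodes with at least 8000 UMIs and under 10% mitochondrial UMIs were kept; the study's limit was 300 UMIs. Doublets were kept. Scrublet (scanpy 1.11.5) marked 0.0186% and 0% of cells by its automatic threshold, too few to be of use, and as an alternative the 230 WT and 238 KO cells with the highest scores were left out.

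Counts were summed per library and cell group and given as CPM, with exact Poisson intervals, and ratios with exact conditional binomial 95% intervals (scipy 1.17.1), which cover counting error only. Genes needed a mean of 10 CPM to be counted. Folds for calls used a pseudocount of 0.1 CPM and a limit of 1.2. Marker gates needed, per 10000 UMIs and in this order, 100 antibody-secreting, 20 basophil/mast, 5 innate lymphoid, 5 megakaryocyte/erythroid, 50 granule, 4 lymphoid and 2 stem cell marker UMIs. 3′ UTRs and positions came from GENCODE (GRCm38). Members, lists and tests were chosen with earlier results of these data known, and gate cuts after seeing the data. Named were each complex's extremes, members 1.2-fold apart, Cycs, Cyc1, complex II, isoform families and members of opposite sign between groups. The ratios and intervals were tried on simulated Poisson counts. This checks the calculation only, as those counts held no spread between cells or mice.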

Additional observations from a re-analysis of the deposited data

Results flagged for a closer look

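These results had opposite signs of the log2 ratio (KO over WT) in 2 cell groups, with both counting intervals off 0. Each rests on 1 library per group, and the difference between groups was not tested. All members together were -0.052 in basophil/mast and 0.031 in granule-high cells, complex IV was -0.077 and 0.035, and complex V was -0.077 and 0.037. In the same pair of groups, Cox5b was -0.15 and 0.12, Atp5e -0.19 and 0.065, Atp5k -0.19 and 0.031, Atp5mpl -0.11 and 0.19, and Cox6c -0.10 and 0.12. Atp5f1, a stator subunit of ATP synthase, was -0.40 in basophil/mast and 0.088 in ungated cells, and Cox7a1, on few UMIs, -1.08 and 0.73. Cox4i2 was -0.92 in basophil/mast and 1.49 in lymphoid-primed cells. Cytochrome c (Cycs) was -0.33 in lymphoid-primed and 0.12 in HSC-like cells, Sdhb was -0.14 and 0.19, and Uqcrq was -0.10 and 0.18. Uqcrc1 was -0.20 in megakaryocyte/erythroid and 0.24 in basophil/mast cells, and Cox7a2l was -0.26 and 0.30. In cells with 15000 to 30000 UMIs several of these pairs were lost. In lymphoid-primed cells Cycs was then 0.17 and Uqcrq 0.21, on the same side as in HSC-like cells (0.27 and 0.20), and Sdhb was -0.074 (-0.25 to 0.10). Uqcrc1 in megakaryocyte/erythroid cells was -0.088 (-0.28 to 0.11), and Cox7a1 in basophil/mast cells -0.90 (-2.19 to 0.34). The other pairs had opposite signs with both intervals off 0 there too, with all members together at -0.11 in basophil/mast and 0.15 in granule-high cells.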

How the results depend on the processing

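The direction over all cells was the same under the alternatives run, except for Cycs and complex II, and the sizes moved most with the mix of cell groups. Weighted to one mix, the log2 ratios were 0.019 (all members), -0.077 (complex II), 0.065 (complex III), -0.18 (cytochrome c, reversed), 0.013 (complex IV) and 0.020 (complex V), with 1 member at least 1.2-fold higher in KO (8.86% of all genes). With median-of-ratios size factors they were 0.25, 0.084, 0.32, 0.31, 0.24 and 0.24, with 21 members; this scaling moved the median of all genes from -0.08 to 0.00, so ratios are best read against that median. With totals lacking mitochondrial, ribosomal and granule genes, all members, complexes III, IV and V were 0.17, 0.24, 0.16 and 0.15, with barcodes over 300 UMIs 0.16, 0.23, 0.15 and 0.15, and without antibody-secreting cells (chosen after seeing the data) 0.16, 0.24, 0.16 and 0.15. In the order of the first list, barcodes with at least 16000 UMIs gave 0.16, -0.015, 0.23, 0.18, 0.16 and 0.15, and the mean of each cell's CPM gave 0.19, 0.057, 0.26, 0.39, 0.18 and 0.18. Cells with 15000 to 30000 UMIs gave 0.19 (all members), 0.086 (complex II), 0.40 (cytochrome c), 0.18 (complex IV) and 0.17 (complex V). Without the top Scrublet scores all members were 0.17. With no filter on low values, 1 member (Cox6a2) was at least 1.2-fold lower. The other 39 values over all cells were within counting error or within 1.5 times the count. Inside granule-high cells, Cycs was -0.28, with gate cuts halved -0.16, with cuts doubled -0.34, and in cells with 15000 to 30000 UMIs 0.069, a reversal. All members there were 0.031, and 0.059 with cuts halved. Inside HSC-like cells, all members were 0.027, with cuts doubled 0.050 and with Hlf left out of the gate 0.068, and Cycs was 0.12, 0.26 and 0.31. The causes were not tested. The weighted mix also counts groups by cells in place of UMIs and leaves out innate lymphoid and antibody-secreting cells.

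No paired analysis was possible because each group had 1 library, and for the same reason no library was left out. The spread between mice is unknown. Members below the level filter and the groups under 50 cells are limited by counts.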
